A study of Mus musculus with 6 samples.

Results

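The genes described here are 6 transcription factor genes of the developing gut wall, namely the T-box genes Tbx2 and Tbx3, the homeobox gene Hlx, and Nr2f1, Nr2f2 and Nr2f6 of the COUP-TF group of orphan nuclear receptors. They were chosen by name for their known roles in patterning gut mesenchyme, with earlier results of these data known. All 6 were among the 12393 genes measured. They were read by 10 of the 22690 probe sets of the array. Nr2f2 had 3 probe sets, Tbx3 and Nr2f6 had 2 each, and Tbx2, Hlx and Nr2f1 had 1 each. Where a gene had several, the brightest on average over the arrays gave its main reading.

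The levels come from 6 Affymetrix arrays, 2 biological replicates in each of 3 groups, hybridised with RNA of cells from C57BL/6 mouse embryos at embryonic day 13.5. The first group is Barx1 intestine, with the genotype Rosa26+/Barx1;Bapx1+/Cre, in which Cre from the Bapx1 (Nkx3-2) locus switches on the homeodomain factor BARX1 in cells that have expressed Bapx1. The other groups are stomach and intestine, labelled wild type, whose embryos carried either Rosa26+/Barx1 or Bapx1+/Cre. The labels do not say which of these alleles each control array carried, nor whether embryos were pooled. All cells were released with proteases, to lower the share of endoderm, and cultured for 3 days with 20% serum, so the readings are of cultured cells and not of intact tissue. In such mixed cultures, fewer cells of a type and less RNA per cell cannot be told apart.

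T-box factors bind DNA through a shared domain, and TBX2 and TBX3 are close relatives that act mostly as repressors, in mouse lung mesenchyme keeping progenitors in cycle. HLX is a homeodomain factor of the visceral mesenchyme, and mouse embryos without it form a short gut and a small liver. The COUP-TF receptors bind repeats of a short nuclear receptor motif without a known hormone in these tissues, and loss of Nr2f2 (COUP-TFII) from mouse stomach mesenchyme disturbs stomach patterning. These statements are background and not results of the arrays.

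Promoter sequence from RefSeq (build GRCm38.p6) was read for 4 of the 6 genes, Hlx, Nr2f1, Nr2f2 and Nr2f6, in 5 windows of 250 bases before a transcription start. The windows of Hlx and Nr2f1, which passed the test in Barx1 intestine against intestine, and of Nr2f2, which did not, are printed 5′ to 3′ on the minus strand, with capitals marking TAAT or its reverse complement ATTA, the core letters that many homeodomains bind. Hlx lies at chr1:184732494-184732743, the upstream start of Nr2f1 at chr13:78198874-78199123, its second start at chr13:78196450-78196699, and Nr2f2 at chr7:70366747-70366996.
Hlx: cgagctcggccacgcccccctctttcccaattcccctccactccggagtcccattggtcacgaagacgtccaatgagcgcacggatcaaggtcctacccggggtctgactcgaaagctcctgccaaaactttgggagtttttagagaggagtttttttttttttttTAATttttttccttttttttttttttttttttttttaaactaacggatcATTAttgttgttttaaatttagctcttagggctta
Nr2f1 start 1: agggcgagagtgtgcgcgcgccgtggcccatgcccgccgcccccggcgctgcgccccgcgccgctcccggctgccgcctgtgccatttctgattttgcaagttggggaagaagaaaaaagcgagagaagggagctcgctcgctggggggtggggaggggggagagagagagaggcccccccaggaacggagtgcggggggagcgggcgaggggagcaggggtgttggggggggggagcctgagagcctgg
Nr2f1 start 2: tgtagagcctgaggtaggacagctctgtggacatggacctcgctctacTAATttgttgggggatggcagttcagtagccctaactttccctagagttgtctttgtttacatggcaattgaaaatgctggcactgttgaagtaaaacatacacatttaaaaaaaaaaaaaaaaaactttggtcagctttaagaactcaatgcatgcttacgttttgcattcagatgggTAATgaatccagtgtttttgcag
Nr2f2: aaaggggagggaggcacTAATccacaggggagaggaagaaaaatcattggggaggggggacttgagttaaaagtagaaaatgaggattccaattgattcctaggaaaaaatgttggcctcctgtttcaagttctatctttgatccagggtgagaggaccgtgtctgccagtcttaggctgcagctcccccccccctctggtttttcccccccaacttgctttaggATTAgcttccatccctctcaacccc
The Hlx window held 2 matches, the first start of Nr2f1 had 0, the second start had 2 and Nr2f2 had 2. The Nr2f6 window had 0. At least 1 match occurs in 54.9% of all 32851 windows of this length, so its presence in 3 of the 5 windows is a description and not a sign of binding. The longer TAATTA, which joins both orientations of the core, was in 0 of the 5 windows and in 4.84% of all. AGGTCA, the nuclear receptor motif, and GGTGTGA, a T-box motif, were in 0 of the 5 windows on either strand, and in 14% and 3.33% of all windows.

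The arrays themselves had closely matched distributions, with medians of 6.93 to 6.98 on the log2 scale and lower quartiles of 4.72 to 4.76. Readings at about the lower quartile or under it cannot be taken as above background. Barx1, read as a check of the labels, was at 8.66 and 8.79 in Barx1 intestine and at 9.82 and 9.79 in stomach, against 5.13 and 4.93 in intestine. Of 10 mesenchyme markers none was below the lower quartile on all arrays, and their mean level ran from 11.3 to 12.1 over the arrays. The main readings of the 6 genes lay between the 47.5th and the 80.2nd percentile of single-gene probe sets by mean level, above the lower quartile on every array.

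**Figure D1:**
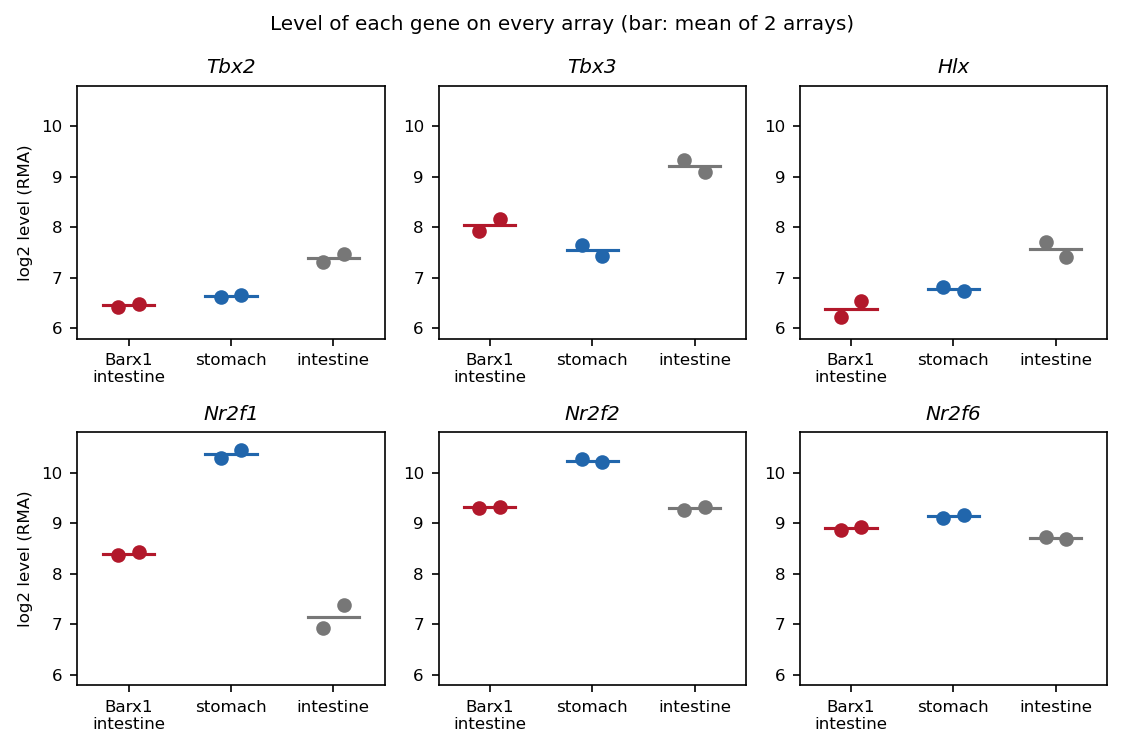
Log2 level (RMA) of each gene's main probe set on every array, with Barx1 intestine, stomach and intestine from left to right; points are arrays and bars are means of 2 arrays. Tbx2, Tbx3 and Hlx are highest on both intestine arrays, and Nr2f1, Nr2f2 and Nr2f6 are highest on both stomach arrays.

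Stomach and intestine cultures were compared first, which asks how these regulators differ between the regions. All 6 genes differed. Tbx2, Tbx3 and Hlx fell in stomach relative to intestine, and Nr2f1, Nr2f2 and Nr2f6 rose. Over all genes 16.9% passed the same test in either direction, 8.86% as higher and 8.09% as lower. The median absolute log2 difference was 0.86 for the 6 genes and 0.14 for all genes. These contrasts are descriptions, because the 6 genes were chosen with earlier results of these data known. The test was limma's moderated test across all 12393 genes with Benjamini-Hochberg adjustment, with a threshold of 0.05 on the adjusted p.

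Tbx3 read 7.65 and 7.44 in stomach, against 9.34 and 9.10 in intestine. Both stomach arrays were lower than both intestine arrays, and the log2 difference was -1.68 (SE 0.13, adjusted p = 0.00359), 3.2-fold lower in stomach. Tbx2 read 6.62 and 6.67 in stomach, against 7.32 and 7.48 in intestine. Its stomach arrays were also below both intestine arrays, by a log2 difference of -0.76 (SE 0.07, adjusted p = 0.00464). Hlx read 6.82 and 6.75 in stomach, against 7.71 and 7.41 in intestine. The groups did not overlap, and the log2 difference was -0.78 (SE 0.14, adjusted p = 0.0216), with the intestine arrays differing from each other by more than the stomach arrays did. The Hlx call ended without stomach replicate 1 (adjusted p = 0.104), stomach replicate 2 (0.125) or intestine replicate 1 (0.0674).

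Nr2f1, which encodes COUP-TFI, showed the largest difference among the 6. It read 10.29 and 10.46 in stomach, against 6.93 and 7.38 in intestine. The log2 difference of 3.22 (SE 0.15, adjusted p = 0.0011) is a 9.34-fold excess in stomach, and the gene ranked 17 of 12393 by p. Nr2f2 read 10.27 and 10.21 in stomach, against 9.28 and 9.32 in intestine, with SDs of 0.05 in stomach and 0.03 in intestine (n = 2 each). Its log2 difference was 0.94 (SE 0.06, adjusted p = 0.00194). Nr2f6, a widely expressed relative also called EAR2, had the smallest difference, with 9.11 and 9.18 in stomach against 8.73 and 8.69 in intestine. The log2 difference was 0.43 (SE 0.06, adjusted p = 0.0112), and the call ended without stomach replicate 1 (adjusted p = 0.0665) or stomach replicate 2 (0.0926). The arrays of stomach and intestine did not overlap for 6 of the 6 genes, as was so for 64.1% of all genes.

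Barx1 intestine was then compared with intestine, which asks what changes in these genes when BARX1 is expressed in intestine cells. Tbx2, Tbx3 and Hlx fell in Barx1 intestine, Nr2f1 rose, and Nr2f2 and Nr2f6 did not pass the test. In this comparison 3.98% of all genes passed in either direction, 1.86% as higher and 2.12% as lower, against 4 of the 6 genes. The median absolute log2 difference was 1.06 for the 6 genes and 0.11 for all genes, again a description of genes chosen with earlier results known. The comparison shares its intestine arrays with that of stomach and intestine, so the values of both are given side by side and their likeness is not a test.

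Tbx2 read 6.43 and 6.48 in Barx1 intestine, against 7.32 and 7.48 in intestine. The log2 difference was -0.95 (SE 0.07, adjusted p = 0.00872), beside -0.76 for stomach over intestine. Tbx3 read 7.93 and 8.16 in Barx1 intestine, against 9.34 and 9.10 in intestine. Its log2 difference was -1.18 (SE 0.13, adjusted p = 0.0196), beside -1.68 for stomach over intestine. Hlx read 6.23 and 6.54 in Barx1 intestine, against 7.71 and 7.41 in intestine. Its log2 difference was -1.18 (SE 0.14, adjusted p = 0.0221), beside -0.78 for stomach over intestine. For each of the 3 genes both Barx1 intestine arrays lay below both intestine arrays, and fold differences were 1.93, 2.26 and 2.26 in that order.

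Nr2f1 read 8.37 and 8.43 in Barx1 intestine, against 6.93 and 7.38 in intestine. Both Barx1 intestine arrays were higher, by a log2 difference of 1.25 (SE 0.15, adjusted p = 0.0222), which is 2.38-fold, beside 3.22 for stomach over intestine. Nr2f2 read 9.31 and 9.33 in Barx1 intestine, against 9.28 and 9.32 in intestine. These groups overlapped, and the log2 difference was 0.02 with a 95% interval of -0.13 to 0.16 (adjusted p = 0.879). That interval is for the single gene and lies below its stomach excess of 0.94. Nr2f6 read 8.87 and 8.94 in Barx1 intestine, against 8.73 and 8.69 in intestine, a log2 difference of 0.20 with a 95% interval of 0.05 to 0.35 (adjusted p = 0.132). Its arrays did not overlap but the adjusted p missed the threshold. Over the 6 genes the arrays did not overlap for 5, as for 52.4% of all genes.

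The 4 calls in Barx1 intestine depended on single arrays. Without Barx1 intestine replicate 1 the adjusted p was 0.0653 for Tbx2, 0.0994 for Tbx3, 0.0994 for Hlx and 0.122 for Nr2f1. Without Barx1 intestine replicate 2 it was 0.0563 for Tbx3, 0.0533 for Hlx and 0.0829 for Nr2f1, and without either stomach array, which enter only the estimate of spread, it was 0.0575, 0.0734 and 0.0675 for the same 3 genes in that order. The log2 differences kept their sign in all of these fits, but no other outcome was possible. With every array kept, each of the 4 genes had both Barx1 intestine readings on one side of both intestine readings. Dropping a single array therefore could not reverse the sign, and the stomach arrays do not enter these differences.

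**Figure D2:**
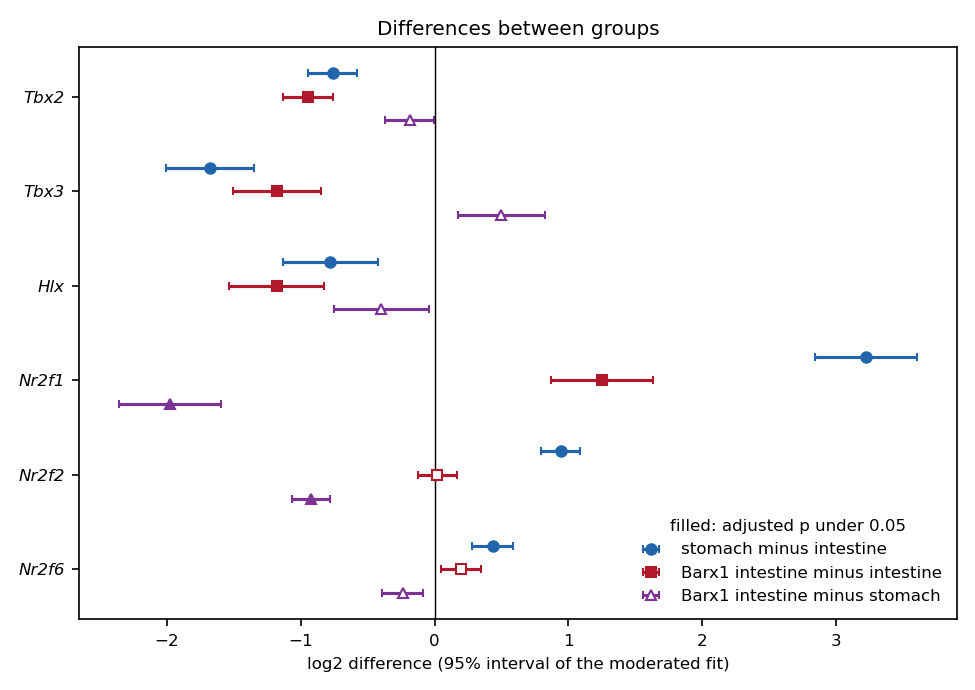
Log2 difference between groups for each gene, with the 95% interval of the moderated fit; circles are stomach minus intestine, squares Barx1 intestine minus intestine and triangles Barx1 intestine minus stomach, filled where the adjusted p was under 0.05. Nr2f1 is the gene with filled symbols in all 3 comparisons, and Nr2f2 lies at 0.02 for Barx1 intestine minus intestine.

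The direct comparison of Barx1 intestine with stomach asks where the BARX1-expressing cells stood relative to the region that normally expresses the factor. Nr2f1 and Nr2f2 fell short of the stomach level, and the other 4 genes did not pass the test. Barx1 itself was also 2.12-fold lower in Barx1 intestine than in stomach (log2 difference -1.08, SE 0.09, adjusted p = 0.0120). In this comparison 5.20% of all genes passed, 2.56% as higher and 2.64% as lower. For Nr2f1 the readings of 8.37 and 8.43 in Barx1 intestine stood against 10.29 and 10.46 in stomach, a log2 difference of -1.97 (SE 0.15, adjusted p = 0.0114), 3.93-fold lower. For Nr2f2 the readings of 9.31 and 9.33 in Barx1 intestine stood against 10.27 and 10.21 in stomach, a log2 difference of -0.92 (SE 0.06, adjusted p = 0.00832).

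Tbx3 differed by 0.50 (95% interval 0.17 to 0.83, adjusted p = 0.0922), with 7.93 and 8.16 in Barx1 intestine and 7.65 and 7.44 in stomach. Hlx differed by -0.40 (95% interval -0.75 to -0.04, adjusted p = 0.170), with 6.23 and 6.54 in Barx1 intestine and 6.82 and 6.75 in stomach. Nr2f6 differed by -0.24 (95% interval -0.39 to -0.09, adjusted p = 0.0872) and Tbx2 by -0.19 (95% interval -0.37 to -0.00086, adjusted p = 0.205). The arrays of Barx1 intestine and stomach did not overlap for 6 of the 6 genes, as for 58.0% of all genes, so these p-values do not show that the 4 levels were alike. The call for Nr2f1 ended without stomach replicate 1 (adjusted p = 0.0712), stomach replicate 2 (0.107) or Barx1 intestine replicate 1 (0.0718), and that for Nr2f2 without the same arrays (0.0658, 0.0841 and 0.0583).

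Put in order of level, Nr2f1 was highest in stomach, intermediate in Barx1 intestine and lowest in intestine, and each neighbouring pair passed the test. Nr2f2 was higher in stomach than in both intestine groups, which did not differ beyond their spread. Nr2f6 followed the order stomach, Barx1 intestine, intestine, where only the difference between its ends passed. Tbx3 was highest in intestine, then Barx1 intestine, then stomach, and Tbx2 and Hlx were highest in intestine, then stomach, then Barx1 intestine. For these 3 genes the intestine differed from both other groups, and the 2 lower groups did not pass the test between them.

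The other probe sets bear on how far these readings hold for the whole gene. All 3 Nr2f2 probe sets, which the annotation ties to the same accession, were higher in stomach than in intestine, by log2 differences of 0.94 to 0.95 in a fit over all 20380 single-gene probe sets. All 3 were also lower in Barx1 intestine than in stomach, by -0.92 to -0.66. Between Barx1 intestine and intestine they differed by 0.02 to 0.28, and none passed. The largest of these came from a probe set that read 7.01 and 7.06 in Barx1 intestine, against 6.70 and 6.82 in intestine (difference 0.28, 95% interval 0.11 to 0.45, adjusted p = 0.0911), so the main reading and this probe set differed in how far they moved.

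For Tbx3 the second probe set did not follow the first. It read 4.57 and 4.61 in Barx1 intestine, 4.86 and 4.64 in stomach, and 4.32 and 4.50 in intestine, below the lower quartile on 5 of the 6 arrays and so not shown to be above background. Its log2 difference was 0.34 for stomach over intestine (adjusted p = 0.0783) and 0.19 for Barx1 intestine over intestine (adjusted p = 0.351), opposite in sign to the main reading and without a call. With the mean of both probe sets in place of the brighter, the Tbx3 difference was -0.67 for stomach against intestine (adjusted p = 0.0106) and -0.50 for Barx1 intestine against intestine (adjusted p = 0.0494), so its size depends on the probe sets used. The second Nr2f6 probe set read 8.55 and 8.54 in stomach, against 8.46 and 8.30 in intestine, and its difference of 0.17 did not pass (adjusted p = 0.270). The stomach excess of Nr2f6 therefore rests on 1 of its 2 probe sets.

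**Figure D3:**
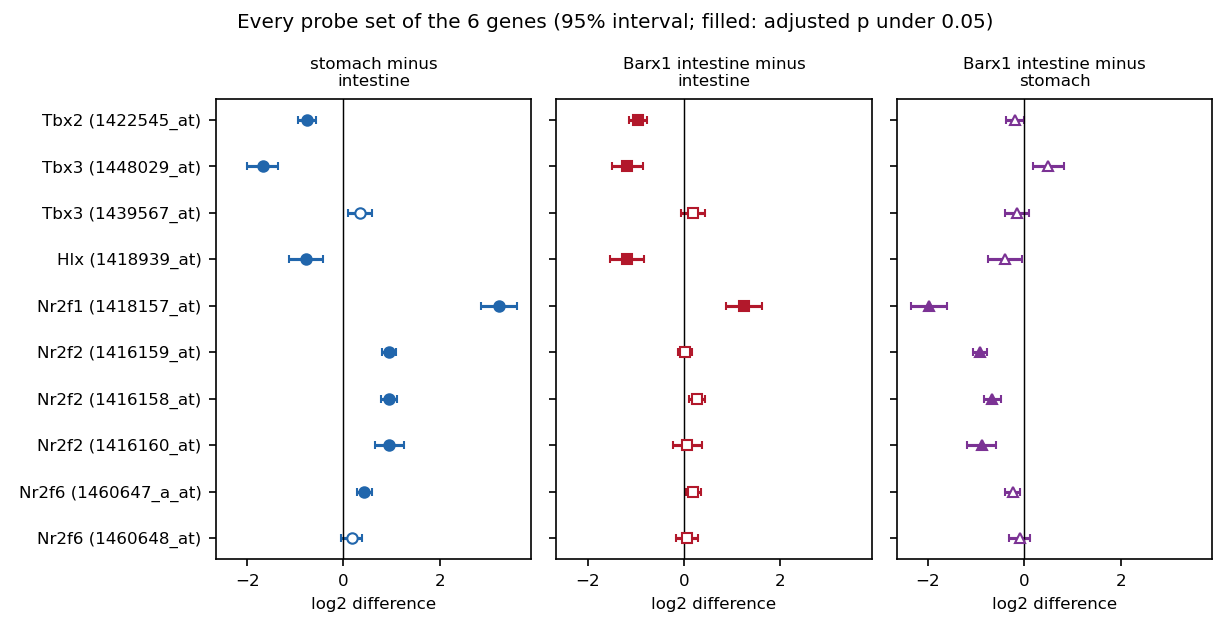
Log2 difference of each of the 10 probe sets in the 3 comparisons, from a fit over all single-gene probe sets, with 95% intervals and filled symbols where the adjusted p was under 0.05. The 3 Nr2f2 probe sets lie together in stomach minus intestine, and the dim second Tbx3 probe set lies on the other side of 0 from the first.

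Within the T-box family 12 further genes were measured, among them Tbx4, Tbx5 and Tbx18, which have roles in limb, heart and urinary tract development. Of these, 7 were below the lower quartile on all arrays. Over all genes, 16.9% passed in stomach against intestine, 3.98% in Barx1 intestine against intestine and 5.20% in Barx1 intestine against stomach. These shares stand beside the counts of this family and of the lists below. By limma 0 of the 12 passed in stomach against intestine and 0 in Barx1 intestine against intestine, with 3 and 1 at an unadjusted p under 0.05. Their log2 differences ran from -0.20 to 0.47 in stomach against intestine and from -0.32 to 0.14 in Barx1 intestine against intestine. In Barx1 intestine against stomach 1 passed, Tbx18, at a mean of 4.67 in Barx1 intestine and 5.44 in stomach (log2 difference -0.77, adjusted p = 0.0456). Its Barx1 intestine mean lay below the lower quartile and so was not shown to be above background, which leaves the size of the difference uncertain.

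Among 7 other NR2 receptors and their RXR relatives, with which many nuclear receptors pair, 1 passed in stomach against intestine, Nr2c2 (testicular receptor 4), at a mean of 7.73 in stomach and 7.45 in intestine (log2 difference 0.29, adjusted p = 0.0288). That is 14.3% of the 7, beside 16.9% of all genes. By limma 0 passed in Barx1 intestine against intestine and 0 in Barx1 intestine against stomach, with 0 and 2 at an unadjusted p under 0.05. Their differences ran from 0.02 to 0.21 in Barx1 intestine against intestine.

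**Figure D4:**
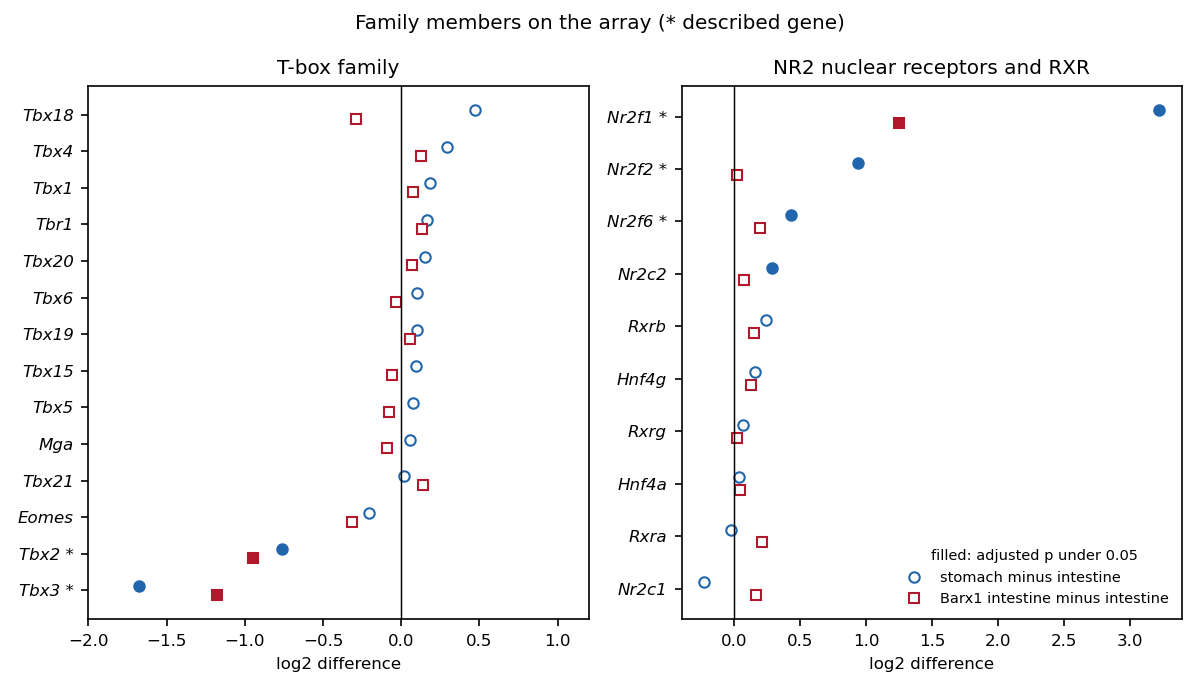
Log2 differences of the measured T-box genes (left) and of the NR2 and RXR genes (right), with circles for stomach minus intestine and squares for Barx1 intestine minus intestine, filled where the adjusted p was under 0.05 and starred where the gene is 1 of the 6. Tbx2 and Tbx3 stand at the low end of their family in both comparisons, and Nr2f1 at the high end of the NR2 genes.

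Genes reported to be repressed by TBX2 or TBX3 did not move one way. Of the 10 measured, 3 rose and 2 fell in stomach against intestine, where 16.9% of all genes passed. The list median log2 difference there was 0.02 beside 0.02 for all genes. Frzb, a secreted Wnt antagonist held down by TBX2 and TBX3 in mouse lung, rose by 0.87 (adjusted p = 0.0063), with a mean of 5.45 in stomach and 4.58 in intestine, the intestine mean lying below the lower quartile. The cell cycle inhibitor genes moved both ways, Cdkn1b by 0.74 (adjusted p = 0.0125), Cdkn1a by -0.69 (adjusted p = 0.00464) and Cdkn1c by -0.80 (adjusted p = 0.0123). The connexin gene Gja1 was the 1 gene to rise in Barx1 intestine against intestine (0.40, adjusted p = 0.0452), 0 fell, and the list median was -0.21 beside 0.02 for all genes. Gja1 was also higher in stomach than in intestine (0.28, adjusted p = 0.0491). Cdkn1a was the 1 gene to pass in Barx1 intestine against stomach (0.52, adjusted p = 0.022).

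Of 12 genes reported to depend on COUP-TF receptors, 3 rose and 1 fell in stomach against intestine, where 16.9% of all genes passed. Wt1, a zinc finger factor of mesothelium and spleen primordium, rose by 1.33 (adjusted p = 0.0213), the forkhead gene Foxc1 by 0.94 (adjusted p = 0.0222) and the semaphorin and VEGF coreceptor gene Nrp1 by 0.53 (adjusted p = 0.0201). Nrp2, its paralog, fell by 0.74 on the log2 scale (adjusted p = 0.00989). In Barx1 intestine against intestine Ccnd1, encoding cyclin D1, rose by 0.57 (adjusted p = 0.023) and Nrp2 fell by 0.72 (adjusted p = 0.0274). Foxc1 was the 1 gene of the list to pass in Barx1 intestine against stomach (-0.93, adjusted p = 0.0466). Its means of 4.94 in Barx1 intestine and 4.93 in intestine both lay near the lower quartile, a limit on both of its differences from stomach.

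COUP-TF receptors can compete with retinoid receptors for DNA, so the retinoid genes were read beside them. Of 11 measured, 0 rose and 2 fell in stomach against intestine, where 16.9% of all genes passed. These were the retinaldehyde dehydrogenase genes Aldh1a3 (-3.02, adjusted p = 0.000418) and Aldh1a1 (-1.91, adjusted p = 0.00173). Both also fell in Barx1 intestine against intestine, by log2 differences of -2.01 (adjusted p = 0.00259) and -0.96 (adjusted p = 0.0204). Crabp1, a cytoplasmic retinoic acid binding protein gene, rose there by 2.26 (adjusted p = 0.0239). The receptor gene Rarb fell in Barx1 intestine against stomach (-1.39, adjusted p = 0.0349), while Aldh1a3 (1.00, adjusted p = 0.0143) and Aldh1a1 (0.95, adjusted p = 0.0173) rose.

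Among 25 other regulators of gut mesenchyme, 13 rose and 2 fell in stomach against intestine, 60% beside 16.9% of all genes. In Barx1 intestine against intestine 7 rose and 3 fell, 40% beside 3.98% of all genes. In Barx1 intestine against stomach 2 rose and 6 fell, 32% beside 5.20% of all genes. Barx1, which the genotype switches on, is 1 of the 13, 1 of the 7 and 1 of these 6. This list too was chosen with earlier results of these data known. The 2 that fell in stomach were Nkx2-3 (-2.31, adjusted p = 0.00309) and Foxf2 (-1.40, adjusted p = 0.00261). Like Tbx2, Tbx3 and Hlx, both also fell in Barx1 intestine against intestine, by -1.83 (adjusted p = 0.0132) and -0.69 (adjusted p = 0.0308). The LIM-homeodomain gene Isl1 (log2 difference 4.56) and the pylorus homeobox gene Six2 (2.22) rose in Barx1 intestine against intestine, and against stomach they differed by 0.24 (adjusted p = 0.209) and 0.13 (adjusted p = 0.423) without a call. The zinc finger factor gene Gata3 rose and the ligand gene Bmp4 fell in Barx1 intestine, Gata3 by 1.74 against intestine and 1.94 against stomach, and Bmp4 by -1.03 and -0.78, while neither passed in stomach against intestine (-0.20, adjusted p = 0.532, and -0.24, adjusted p = 0.114). Meis1, a TALE homeobox gene, had the same order of levels as Nr2f1. Its mean was 9.40 in Barx1 intestine, 9.77 in stomach and 8.64 in intestine, and each pair passed (adjusted p = 0.00836 for Barx1 intestine against intestine, 0.00124 for stomach against intestine and 0.0332 for Barx1 intestine against stomach). Tlx1, a homeobox gene needed for spleen formation, had the order of Nr2f2, with a mean of 4.69 in Barx1 intestine and 4.67 in intestine, both near the lower quartile, and 6.02 in stomach. Pitx1 rose against intestine by 3.13 in stomach (adjusted p = 0.00192) and by 2.36 in Barx1 intestine (adjusted p = 0.00905). Gata6 was higher in stomach than in intestine (0.86, adjusted p = 0.00965) and lower in Barx1 intestine than in stomach (-1.33, adjusted p = 0.0120). Barx1 intestine had no call for Pitx1 against stomach (-0.77, adjusted p = 0.0811) or for Gata6 against intestine (-0.48, adjusted p = 0.0799).

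The genes with the most alike pattern over the 6 arrays were found for the 3 genes whose group means spanned at least 1 log2 unit, by the smallest root mean square difference of values centred on each gene's mean among 12392 genes. For Tbx3 they were Ctla2b (root mean square difference 0.0807 log2 units), Tmem71 (0.123) and Septin4 (0.175). For Hlx they were the chemokine gene Cxcl16 (0.132), the membrane glycoprotein gene Cd200 (0.158) and the homeobox gene Hhex (0.164). For Nr2f1 they were the ephrin receptor gene Epha3 (0.232), the homeobox gene Prrx1 (0.300) and the connexin gene Gjb2 (0.325). Epha3 had a log2 difference of 3.19 for stomach over intestine and 0.85 for Barx1 intestine over intestine, beside 3.22 and 1.25 for Nr2f1. All 9 share the 6 arrays with the genes they resemble, and the measure is a description with no test.

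Markers of other cell types also differed between the groups. Over all genes 3.98% passed in Barx1 intestine against intestine and 16.9% in stomach against intestine. Of 12 leukocyte markers 6 fell in Barx1 intestine against intestine and 0 passed in stomach against intestine by limma, with 12 and 8 at an unadjusted p under 0.05. Their mean log2 level on the 2 arrays was 6.93 and 7.76 in Barx1 intestine, 8.39 and 8.11 in stomach, and 8.89 and 9.88 in intestine, replicates 1 and 2. Of 14 epithelial markers 1 fell in Barx1 intestine against intestine and 2 in stomach against intestine, with mean levels of 7.48 and 6.82 in Barx1 intestine, 6.35 and 7.07 in stomach, and 8.48 and 7.42 in intestine. Of 10 markers of enteric neurons and glia the same 3 fell in each of these comparisons and 1, Gap43, rose in stomach. In Barx1 intestine against intestine the 3 differed by -3.17 (Ednrb), -2.60 (Erbb3) and -1.58 (Sox10). Mean levels of the 10 were 6.40 and 6.74 in Barx1 intestine, 7.03 and 6.95 in stomach, and 7.43 and 7.55 in intestine. Of 8 pancreas and liver markers 1 fell in stomach against intestine, Afp (-1.56, adjusted p = 0.0135), the alpha-fetoprotein gene. Of 12 endothelial markers 2 fell in Barx1 intestine against intestine, Esam (-0.92, adjusted p = 0.00905) and Pecam1 (-0.61, adjusted p = 0.0239), and 3 fell in stomach against intestine, Kdr (-1.59, adjusted p = 0.00514), Esam (-0.84, adjusted p = 0.00426) and Pecam1 (-0.59, adjusted p = 0.00961). Pecam1 was below the lower quartile on all arrays and so was not shown to be above background. Tbx2, Tbx3 and Hlx also fell in Barx1 intestine and in stomach relative to intestine. The part of these cell types in the 3 genes' differences was not tested.

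Nr2f2 is also known from venous and lymphatic endothelium and from mesothelium. Of the endothelial markers 5 were below the lower quartile on all arrays (Pecam1, Cdh5, Tek, Tie1 and Prox1), and the mean of the 12 was 4.84 and 4.81 in Barx1 intestine, 4.69 and 4.69 in stomach, and 4.97 and 5.12 in intestine. In Barx1 intestine against stomach 2 rose, Kdr (1.28, adjusted p = 0.0218) and Emcn (0.56, adjusted p = 0.0484). The Emcn mean of 4.39 in stomach lay below the lower quartile and so was not shown to be above background. The part of the endothelial markers in the Nr2f2 difference was not tested. Of 6 mesothelial markers 2 rose (Wt1 and Bnc1) and 1 fell (Msln) in stomach against intestine. By limma 0 passed in Barx1 intestine against intestine and 0 against stomach, with 3 at an unadjusted p under 0.05 in each. Their means were 6.49 and 6.12 in Barx1 intestine, 6.23 and 6.81 in stomach, and 6.61 and 6.32 in intestine. Mesenchyme markers rose in stomach for 5 of 10 genes relative to intestine, and fell for 5 of 10 in Barx1 intestine relative to stomach. The 5 that rose were Col1a2 (1.98), Pdgfra (1.63), a receptor of gut fibroblasts, Col1a1 (0.72), Col3a1 (0.58) and Twist2 (0.57). The other 5, among them Vim (0.10) and Acta2 (0.05), had no call. In Barx1 intestine against intestine 1 of the 10 passed, Twist2 (0.71, adjusted p = 0.0221), beside 3.98% of all genes. The mean of the 10 was 11.3 and 11.5 in Barx1 intestine, 12.1 and 12.1 in stomach, against 11.5 and 11.5 in intestine. Their part in the COUP-TF differences was not tested.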

How the data were processed

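RNA from 6 samples in 3 groups of 2 was measured on Affymetrix arrays, and the groups and replicate numbers came from the labels. The authors deposited log2 expression values made with RMA, per the submitters' processing notes, which corrects background, equalises array distributions and summarises probe sets, so shifts common to most genes would be removed. The version is not given in the sources used here, and the log2 scale was read from the values (2.48 to 14.7). Arrays give no read depth, and their number limits precision.

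Probe sets were named through the platform annotation, leaving 20380 with 1 gene, and the brightest probe set on average stood for each of the 12393 genes. One fit of 3 group means over all 6 arrays used limma 3.58.1 in R 4.3.3, with 3 residual and 2.58 prior degrees of freedom. It was tested on simulated data. Adjusted p-values are Benjamini-Hochberg values over all genes of a comparison, standard errors (SE) are moderated, and 95% intervals are unadjusted. Fold differences are powers of 2 of the fitted log2 differences. Replicates are called biological in the labels, and nothing says that they came from separate litters, so p-values measure the spread between these samples.

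The 6 genes, the gene lists and the tests were chosen with earlier results of these data known. A rule of naming up to 5 called genes per list and comparison, by smallest p, was set in the same way. The text did not keep to it throughout, so the list genes named are examples, while the counts cover each list. Promoter windows are from RefSeq. Alternatives covered array medians, a second quantile normalization, a filter on dim genes, the mean of probe sets, each other probe set, fitting only the 2 groups compared, a trend of variance on level, a replicate block, and leaving out each array.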

Additional observations from a re-analysis of the deposited data

How the results depend on the processing

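With 2 arrays a group, calls depended on the estimate of spread. Of 138 values of the 6 genes under other settings, 131 kept their direction and their side of the threshold, 4 lost a call and 3 changed sign. The filter on dim genes, variance trend, 2-group fit and replicate block returned the main log2 differences, so direction could not change there. The same held for the mean of probe sets in genes with 1 probe set. The 131 therefore say little about direction. Among the 131, the mean of probe sets gave Tbx3 -0.67 in stomach against intestine and -0.50 in Barx1 intestine against intestine, under -1.68 and -1.18 in size. With only the 2 groups compared in the fit, Tbx3 (-1.18, adjusted p = 0.0575), Hlx (-1.18, adjusted p = 0.0734) and Nr2f1 (1.25, adjusted p = 0.0675) lost their calls in Barx1 intestine against intestine, a fit with fewer samples. The other Nr2f6 probe set had no call in stomach against intestine (0.17). The dim Tbx3 probe set changed sign in stomach against intestine (0.34), in Barx1 intestine against intestine (0.19) and in Barx1 intestine against stomach (-0.16), with no call, and the cause was not tested. Genes called overall in Barx1 intestine against intestine numbered 493, and 1037 with the variance trend, 50 with the 2-group fit and 267 with the replicate block. In Barx1 intestine against stomach they numbered 644, and 1189 with the trend and 337 with the replicate block. The labels share only replicate numbers, and same-numbered arrays deviated together with correlations of -0.22 (stomach with intestine), 0.20 (Barx1 intestine with intestine) and -0.06 (Barx1 intestine with stomach), so the block was not taken as a pairing; it changed no call of the 6 genes.

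Leaving out 1 array at a time kept 4 of the 12 calls of the 6 genes in all 6 fits, those of Tbx2, Tbx3, Nr2f1 and Nr2f2 in stomach against intestine, and ended the other 8 in at least 1. In stomach against intestine the log2 difference ranged from -0.93 to -0.63 for Hlx and from 0.40 to 0.47 for Nr2f6, and 281 to 1692 genes were called. In Barx1 intestine against intestine it ranged from -1.03 to -0.87 for Tbx2, from -1.30 to -1.06 for Tbx3, from -1.34 to -1.02 for Hlx and from 1.03 to 1.47 for Nr2f1, and 50 to 466 genes were called. Nr2f2, without a call there, ranged from -0.0029 to 0.043 and changed sign without intestine replicate 1. In Barx1 intestine against stomach it ranged from -2.06 to -1.89 for Nr2f1 and from -0.96 to -0.89 for Nr2f2, and limma called 0 to 727 genes, the 0 arising without stomach replicate 2, where 1906 genes had an unadjusted p under 0.05. Where a group kept 1 array, that array was assumed to vary like the other groups.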
